A study of Homo sapiens with 6 samples.

Results

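The multi-domain BCL2 family was followed in T-24, an established line of adherent epithelial cells from a human bladder cancer, as the 8 rows of the deposited tables, out of 38557, whose symbol was MCL1, BCL2, BCL2L1, BCL2L2, BCL2A1, BAX, BAK1 or BOK. All 8 symbols were found. The genotype field reads WT for the DMSO cultures and names only the compound for the others. Cells received 1 µM CCT068127, a CDK2 and CDK9 inhibitor that blocks kinases of the cell cycle and of transcription, or the vehicle DMSO, for 48 h, with 3 libraries of poly(A) RNA in each arm. The labels describe the replicates as independent, all came from a single cell line, and the comparison asks which transcripts differ with the compound.

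BCL2 proteins decide whether the outer mitochondrial membrane stays intact. The survival proteins MCL1, BCL2, BCL-XL (gene BCL2L1), BCL-W (gene BCL2L2) and BFL-1 (gene BCL2A1) hold back the effectors BAX and BAK (gene BAK1), which otherwise form pores that release cytochrome c, while the less studied effector BOK is thought to act more on its own. BH3-only proteins, set free or made under stress, bind the survival proteins or the effectors and tip this balance. MCL1 is known for a short-lived mRNA and protein, which is why it is often read out when transcriptional kinases such as CDK9 are inhibited.

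The library totals ranged from 1966742 to 411097626 counts. DMSO replicates 1 and 2 held 371044040 and 411097626 counts, while the other 4 libraries held 1966742 to 5955296, so the shallow libraries set the precision. CCT068127 replicate 2 was the shallowest and had 4.07% of its counts on 13 mitochondrially encoded genes, against 2.01% to 2.42% in the other libraries. The keratins KRT7, KRT8, KRT18 and KRT19 marked the cells as epithelial, with a summed epithelial marker level of 3677 to 4874 TPM (a level per transcript length) in DMSO and 5281 to 6725 TPM in CCT068127. The epithelial cadherin gene CDH1 was near 0, at 0.14 TPM or less. The basal list (5 genes) summed to 461 to 486 TPM in DMSO and 732 to 782 TPM in CCT068127, mostly from CD44 and KRT17, with KRT5 near 0. The luminal list (6 genes) summed to 79.3 to 102 TPM and 13.7 to 18.9 TPM, mostly from GATA3, with KRT20 near 0. All 4 mesenchymal markers were present, with a summed 1894 to 2118 TPM in DMSO and 1500 to 1712 TPM in CCT068127. The stromal list (4 genes) summed to 11.2 to 14.8 TPM in DMSO, mostly from PDGFRB, and to 1.84 to 2.6 TPM in CCT068127, with COL1A2 and DCN listed at 0 in every library. The endothelial list (3 genes) summed to 4.66 to 5.67 TPM and 2.26 to 5.09 TPM, from PECAM1 and CDH5. PTPRC and CD3E stayed at or under 0.52 TPM, while the lysosomal marker CD68 was at 7.24 TPM on average in DMSO and 42.1 TPM in CCT068127. In bulk RNA, fewer cells that express a gene and less of its RNA per cell cannot be told apart.

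The sequences that matter most for these results are 2 splice junctions of the BCL2L2 locus, because they are where transcripts of BCL2L2 and of the read-through gene BCL2L2-PABPN1 part. BCL2L2 lies on chromosome 14 from 23306833 to 23311751 on the plus strand (GRCh38). In GENCODE release 29 both genes use the exon that ends at 23308199, and the next exon starts at 23308816 in BCL2L2 and at 23322181, inside PABPN1, in the read-through. Each sequence is written 5′ to 3′ with the last 30 bases of the shared coding exon in lower case and the first 30 coding bases of the next exon in capitals.
BCL2L2: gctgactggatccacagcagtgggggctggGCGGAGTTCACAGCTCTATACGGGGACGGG
BCL2L2-PABPN1: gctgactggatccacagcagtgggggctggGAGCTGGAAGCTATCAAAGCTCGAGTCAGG
The lower-case stretches are the same, and the next exons differ after a shared first base. Of the 3605 bases of the BCL2L2 transcript, 588 (16.3%) are also in the read-through, and 432 of its 579 coding bases are. The read-through transcript of 1241 bases has 0 bases outside exons of BCL2L2 or PABPN1, so of its reads only those across the junction from BCL2L2 into PABPN1 set it apart from both genes. The last exon of BCL2L2, 2944 bases long, is absent from the read-through.

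Of the 7 members with enough counts to test, BCL2L1 rose, BCL2L2 and BOK fell, and MCL1, BCL2, BAX and BAK1 did not pass the test in either direction. This was edgeR's quasi-likelihood test with Benjamini-Hochberg adjustment over 13597 genes and a threshold of 0.05 (n = 3 per group), and BCL2A1 had too few counts to enter it. The 3 called members stand beside a background of 64.7% of all genes called, 31.9% higher and 32.8% lower. The members' median log2 fold change was -0.13, against -0.05 over all genes tested. CPM values (counts scaled to a common library size by TMM) did not overlap between the groups for 3 of the 7 members, against 69.4% of all genes. The members' share of calls thus did not exceed that of the whole transcriptome, and their calls are read below gene by gene.

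**Figure D1:**
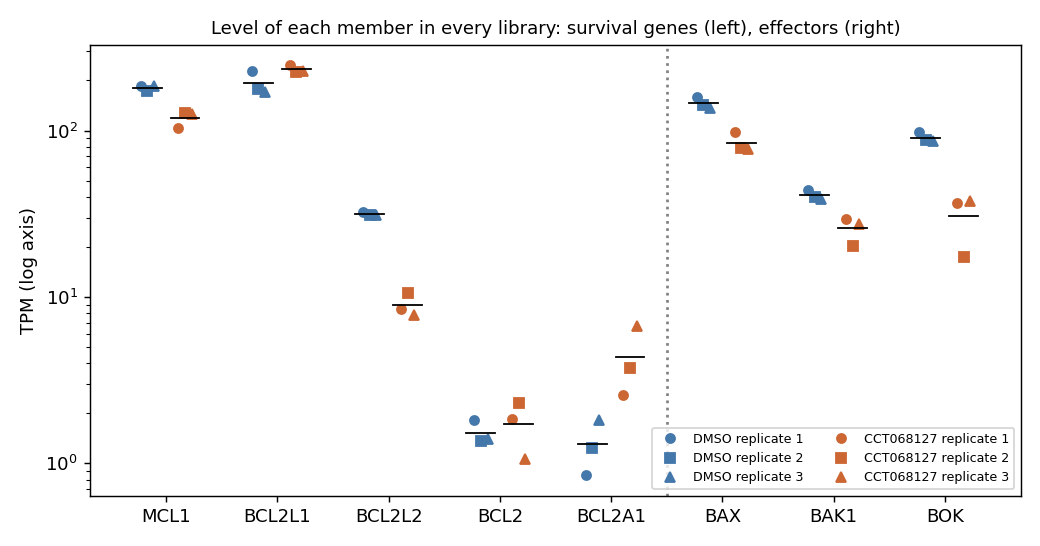
TPM of each of the 8 members in every library, on a log axis, with DMSO in blue and CCT068127 in orange, symbols by replicate number and a black line at each group mean (n = 3). BCL2L1 and MCL1 lead the survival genes and BAX leads the effectors in both groups, while BCL2 and BCL2A1 lie under 10 TPM in every library.

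On the per-length TPM scale, BCL2L1 (192 ± 31.9 TPM; SD, n = 3, as for all such values) and MCL1 (181 ± 6.96) were the highest members in DMSO, and their ranges overlapped. BAX (146 ± 11.8), BOK (90.3 ± 6.15), BAK1 (41 ± 2.68) and BCL2L2 (31.4 ± 0.788) followed, each apart from its neighbour. BCL2 (1.53 ± 0.257) and BCL2A1 (1.3 ± 0.489) came last and overlapped each other. With CCT068127 the order began with BCL2L1 at 233 ± 12 TPM and MCL1 at 119 ± 13.1 TPM, which no longer overlapped. BOK (30.6 ± 11.4) and BAK1 (25.8 ± 4.89) now overlapped, and BCL2A1 (4.35 ± 2.14) stood above BCL2 (1.74 ± 0.628).

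MCL1 (chromosome 1, 150574558 to 150579610, minus strand), the survival gene with the short-lived product, was read 142122, 147106 and 2267 times in DMSO replicates 1 to 3 and 1362, 575 and 1367 times in CCT068127 replicates 1 to 3. Scaled, this gave 344, 326 and 339 CPM in DMSO and 278, 328 and 324 CPM in CCT068127. The groups overlapped through CCT068127 replicate 2 alone, replicate 3 lay just under the lowest control, and replicate 1 was the lowest. The log2 fold change was -0.12 ± 0.10 (SE), with a 95% interval from -0.34 to 0.10 (edgeR adjusted p = 0.301). After 48 h a loss of MCL1 mRNA as large as 2-fold, relative to the other transcripts, thus lay outside the interval on this scale. Every scaling used here is relative, so a loss of RNA per cell shared by most genes would not be seen. In TPM the groups did not overlap, at 186, 173 and 184 in DMSO against 104, 128 and 125 in CCT068127. MCL1 passed as lower in limma-trend on log2(TPM + 1) values (-0.61 and adjusted p = 0.00121) and in edgeR with scaling by library totals (-0.43, adjusted p = 0.0029), both of which also moved the median of all genes, to -0.46 and -0.36. Relative to those medians MCL1 stood at -0.14 and -0.07, beside -0.07 in the TMM fit. Without a filter on low values the median was -0.04 in limma-trend and -0.49 in edgeR. Relative to these MCL1 stood at -0.56 and 0.13. Whether MCL1 counts as lower thus depended on the scaling and on the genes that set the median. The 3 genes with the pattern most like MCL1 among 11337 compared over the 6 libraries were PSMG2, UPF3A and ITSN1, at root mean square differences of 0.0229, 0.0263 and 0.0269 in log2 CPM, and their own log2 fold changes were -0.13, -0.12 and -0.10.

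BCL2L1 (chromosome 20, 31664452 to 31723963, minus strand), which encodes BCL-XL, was the member that rose. It stood at 268, 212 and 198 CPM in DMSO and at 414, 364 and 365 CPM in CCT068127. Every treated library lay above every control, though DMSO replicate 1 was higher than the other 2 controls. The log2 fold change was 0.75 ± 0.13, or 1.69-fold (edgeR adjusted p = 0.000367), and it ranged from 0.64 to 0.87 when any 1 library was left out. On TPM values the groups overlapped, with 228, 177 and 170 in DMSO against 247, 224 and 228 in CCT068127, and the call was lost (0.29, limma-trend adjusted p = 0.0649). Against the median of all genes it stood at 0.80 with TMM and 0.75 on log2(TPM + 1) values. Without a filter on low values, where the median on that TPM scale was -0.04, it stood at 0.33. ABALON, an antisense RNA gene inside BCL2L1, was also higher (22.2, 17.1 and 16.1 CPM in DMSO; 48.3, 34.8 and 39.3 CPM in CCT068127; log2 fold change 1.14 ± 0.16, edgeR adjusted p = 0.000116). The sources do not state whether the counting used strand, and without strand, reads of these genes cannot be told apart where they overlap.

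BCL2L2, which encodes BCL-W, had the largest fold change of the 7 tested members. Its row held 54.5, 53.2 and 51.7 CPM in DMSO and 20.4, 24.6 and 18.2 CPM in CCT068127. Each treated library held less than the lowest control, and the log2 fold change was -1.38 ± 0.13, a 2.6-fold fall (edgeR adjusted p = 4.9e-06). The fall held in TPM, from 32.3, 30.9 and 31 to 8.48, 10.6 and 7.82. The read-through row moved the other way: BCL2L2-PABPN1 stood at 22.5, 16.7 and 14.3 CPM in DMSO and at 45.4, 64 and 41.7 CPM in CCT068127, with a rise of 1.41 ± 0.19 on the log2 scale (edgeR adjusted p = 0.000109). It took 29.2%, 23.9% and 21.7% of the counts of both rows in DMSO and 69%, 72.3% and 69.6% in CCT068127. PABPN1, the poly(A)-binding protein gene downstream, fell from 221, 248 and 244 to 107, 128 and 154 CPM (log2 fold change -0.87 ± 0.13, edgeR adjusted p = 0.000185). HOMEZ and PPP1R3E overlap BCL2L2 on the other strand, and without strand their reads cannot be told apart from those of BCL2L2 where they overlap. Their log2 fold changes were -0.83 ± 0.19 and -0.42 ± 0.21 (edgeR adjusted p = 0.00275 and 0.0969).

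With the counts of BCL2L2 and BCL2L2-PABPN1 added into 1 row, an alternative chosen after seeing the data, the summed row showed no fall. Of the 1241 bases of the read-through transcript, 653 lie in exons of PABPN1. The summed row can thus hold reads of PABPN1 exons and does not measure BCL2L2 alone. The sum was 77, 69.9 and 66 CPM in DMSO and 65.8, 88.5 and 59.9 CPM in CCT068127. Its log2 fold change was -0.03 ± 0.14, with a 95% interval from -0.34 to 0.28 (edgeR adjusted p = 0.869). The high sum of CCT068127 replicate 2 weighed on this value, which was -0.21 without that library (adjusted p = 0.108), and scaling by library totals gave -0.34 (adjusted p = 0.0458). The read-through row, which shares the exon before the junctions shown above, thus held a larger part of the joint counts in every treated library, and a fall in the sum was not detectable at this depth with TMM scaling. The part that the authors' division of shared reads between the rows played was not tested, and their annotation is not known here. The genes most like BCL2L2 in pattern were SGPL1, ZKSCAN8 and C20orf96, at root mean square differences of 0.0536, 0.0564 and 0.0573 in log2 CPM among the same 11337 genes.

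**Figure D2:**
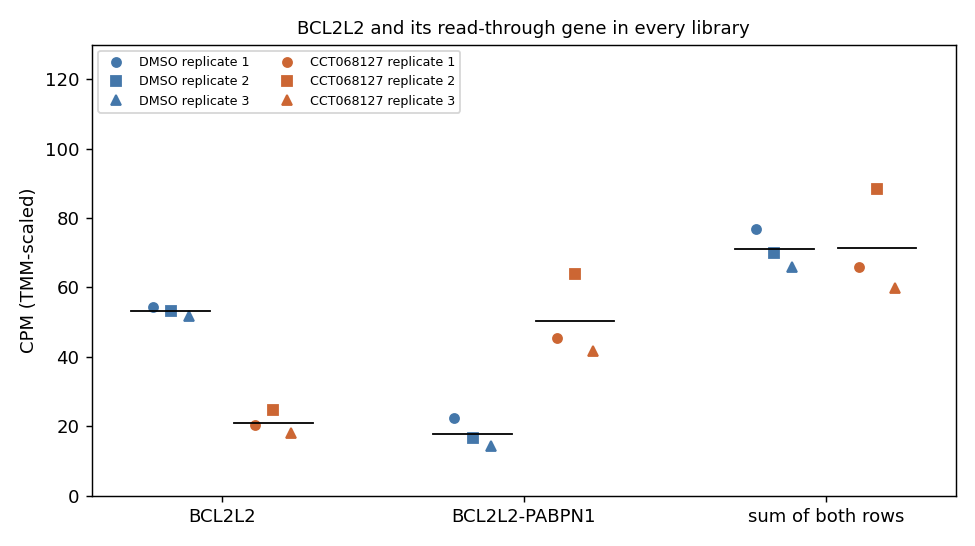
TMM-scaled CPM of BCL2L2, of the read-through gene BCL2L2-PABPN1 and of the 2 rows added together, in each library, with lines at the group means (n = 3). The BCL2L2 row is lower and the read-through row higher in all 3 CCT068127 libraries, while the sums of the groups overlap.

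The other 2 survival genes were scarce. BCL2 (chromosome 18, 63123346 to 63320090, minus strand), the founding member of the family, stood at 3.32, 2.82 and 3.28 CPM in DMSO and at 4.08, 4.57 and 3.31 CPM in CCT068127. The groups overlapped at their edges, and the log2 fold change of 0.32 ± 0.25 had an interval from -0.23 to 0.87 (edgeR adjusted p = 0.276). CCT068127 replicate 2 rested on 8 reads, so a change of BCL2 within that interval was not detectable at this depth. BCL2A1 (chromosome 15, 79960892 to 79971196, minus strand), known as an NF-kappaB target in blood cells, had 115, 187 and 4 counts in DMSO and 6, 3 and 13 counts in CCT068127. In CPM this was 0.278, 0.415 and 0.597 against 1.22, 1.71 and 3.08 CPM, with no overlap. Pooled, 306 DMSO and 22 CCT068127 counts gave 0.388 and 1.81 CPM by library totals, a ratio of 4.65 with an exact 95% counting interval of 2.87 to 7.17. The interval covers counting error only. The deep DMSO replicates 1 and 2 gave 115 and 187 of the 306 control counts, and 13 of the 22 treated counts came from CCT068127 replicate 3. In the same libraries CD68 was 4.93 to 9.24 TPM in DMSO and 40.1 to 43.3 TPM in CCT068127, and the pan-leukocyte gene PTPRC stayed near 0, and the part of other cells in the BCL2A1 values was not tested. Without a filter on low counts BCL2A1 passed as higher (log2 fold change 2.21, edgeR adjusted p = 7.02e-05). That fit also moved the edgeR adjusted p of BOK from 0.00312 to 1.29e-14 and that of BCL2L1 from 0.000367 to 0.00137. On log2(TPM + 1) values the BCL2A1 difference was 1.16 (limma-trend adjusted p = 0.01, and 0.0342 without a filter). Against DMSO replicate 3 alone, the control with the highest CPM of this gene, its log2 fold change was 1.69, without a test.

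Among the effectors, BOK fell and BAX and BAK1 did not pass. BOK (chromosome 2, 241551393 to 241574131, plus strand) was at 116, 107 and 102 CPM in DMSO and at 64.6, 27.4 and 62.7 CPM in CCT068127. All treated libraries were lower, and CCT068127 replicate 2, with 48 reads, was far below the other 2. The log2 fold change was -1.0 ± 0.22 (edgeR adjusted p = 0.00312) and -0.79 without CCT068127 replicate 2 (adjusted p = 0.000158). BOK-AS1, its antisense neighbour, held 0 to 109 counts per library. BAX (chromosome 19, 48954875 to 48961798, plus strand), a pore former that waits in the cytosol, was at 56.4, 51.5 and 47.8 CPM in DMSO and at 51.2, 36.6 and 39.8 CPM in CCT068127. CCT068127 replicate 1 lay inside the DMSO range, and the log2 fold change was -0.27 ± 0.14 (interval -0.57 to 0.03, edgeR adjusted p = 0.105). Without CCT068127 replicate 1 BAX passed as lower (-0.47, adjusted p = 0.00876). BAK1 (chromosome 6, 33572552 to 33580276, minus strand), the pore former that resides on mitochondria, was at 43.9, 40.6 and 38.7 CPM in DMSO and at 42.6, 28 and 38.8 CPM in CCT068127. Only CCT068127 replicate 2 was outside the DMSO range, and the log2 fold change was -0.13 ± 0.14 (interval -0.44 to 0.17, edgeR adjusted p = 0.419).

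In TPM all 3 effectors were lower in every treated library. BAX had 159, 143 and 137 TPM in DMSO and 97.9, 78.3 and 77.4 in CCT068127. BAK1 had 44, 39.9 and 39 against 29.6, 20.3 and 27.6 TPM. BOK had 97.3, 87.7 and 85.9 against 36.7, 17.5 and 37.7 TPM. On log2(TPM + 1) values BAX (-0.79), BAK1 (-0.66) and BOK (-1.60) passed as lower, with limma-trend adjusted p of 0.000712, 0.00529 and 0.00129, and 5 members in all were called lower, where 51.9% of all genes were called lower and the median of all genes was -0.46. Relative to that median BAX stood at -0.33, BAK1 at -0.20 and BOK at -1.14. Without a filter on low values the median was -0.04, and they stood at -0.75, -0.62 and -1.56 relative to it. The same 5-member count came with scaling by library totals, beside 48.3% of all genes, where BAX was at -0.58 and BAK1 at -0.45 (edgeR adjusted p = 0.00268 and 0.0152). All 7 tested members kept their sign under the 4 treatments of the data drawn in the plot of fold changes by scaling. The calls of BCL2L2 and BOK held in each of them, while that of BCL2L1 was lost on log2(TPM + 1) values.

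**Figure D3:**
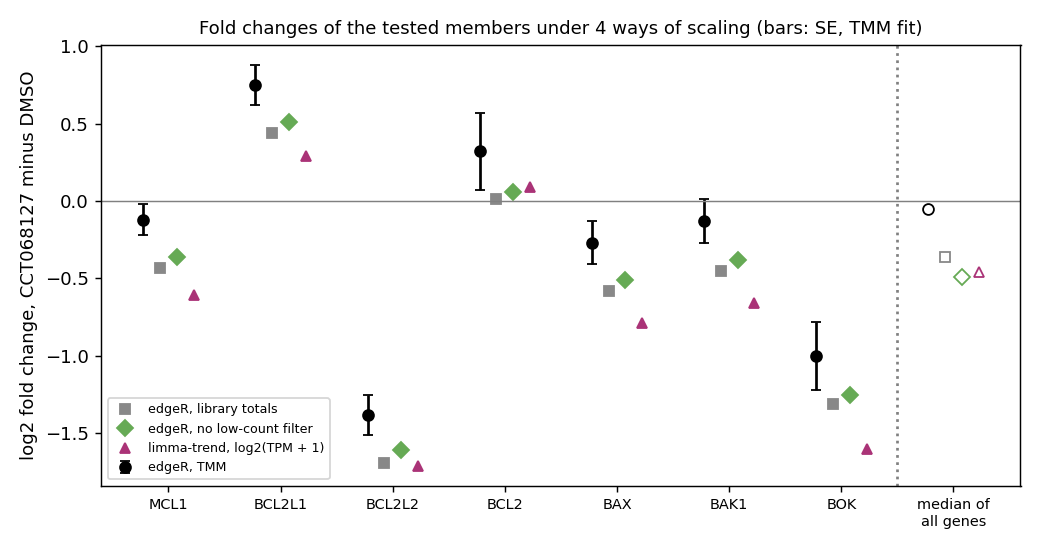
Log2 fold change (CCT068127 minus DMSO) of the 7 tested members under 4 treatments of the data, with SE bars for the TMM fit and, at the right, open symbols for the median of all genes in the same fit. MCL1, BAX and BAK1 lie between -0.27 and -0.12 with TMM and between -0.79 and -0.61 on log2(TPM + 1), while BCL2L1 lies above and BCL2L2 and BOK lie below the median in each.

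To show what lies upstream of the effectors, the 250 bases before the annotated start of each (RefSeq, GRCh38.p14; for BOK a start inside the gene's span) are shown 5′ to 3′, with capitals for every match, on either strand, to the E-box CACGTG, bound by MYC and MAX, or to the GC box GGGCGG, bound by SP1. RefSeq entries of this kind were matched for 6 of the 8 members.
BAX (chr19:48954625-48954874, plus strand): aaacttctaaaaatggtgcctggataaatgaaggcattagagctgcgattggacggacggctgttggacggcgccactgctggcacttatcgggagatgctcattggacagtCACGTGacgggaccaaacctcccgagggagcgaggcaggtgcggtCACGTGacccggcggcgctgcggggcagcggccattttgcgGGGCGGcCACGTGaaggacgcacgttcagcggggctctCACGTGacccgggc
BAK1 (chr6:33580277-33580526, minus strand): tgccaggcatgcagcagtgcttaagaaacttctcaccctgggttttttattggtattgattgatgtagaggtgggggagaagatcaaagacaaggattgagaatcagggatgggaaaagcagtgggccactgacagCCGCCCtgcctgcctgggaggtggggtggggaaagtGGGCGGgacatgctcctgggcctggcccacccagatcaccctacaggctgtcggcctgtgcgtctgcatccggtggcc
BOK (chr2:241558495-241558744, plus strand): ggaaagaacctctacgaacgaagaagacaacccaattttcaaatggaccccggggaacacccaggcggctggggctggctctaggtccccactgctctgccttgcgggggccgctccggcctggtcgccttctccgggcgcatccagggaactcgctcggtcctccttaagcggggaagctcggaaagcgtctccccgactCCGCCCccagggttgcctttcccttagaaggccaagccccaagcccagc
The BAX window holds 4 E-boxes and 1 GC box, which do not overlap. Of 35116 windows of the same length in the table, 2228 (6.34%) hold an E-box and 5 hold 4 or more. BAK1 and BOK hold 0 E-boxes and 2 and 1 GC boxes, a motif found in 42.6% of windows. A match is a description of letters and carries no statement on binding.

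Shares within a library need no scaling between libraries, and among the survival genes that of MCL1 was smaller and that of BCL2L1 larger with CCT068127. A share also falls when another gene of the set rises. MCL1 itself did not pass in the TMM fit (log2 fold change -0.12, edgeR adjusted p = 0.301). MCL1 made up 41.4%, 45.1% and 47.4% of the summed TPM of the 5 survival genes in DMSO and 28.6%, 34.6% and 34% in CCT068127. BCL2L1 made up 50.8%, 46.1% and 43.8% in DMSO and 67.9%, 60.9% and 61.7% in CCT068127. Neither share overlapped between the groups. The ratio of BCL2L1 to MCL1 TPM was 1.23, 1.02 and 0.926 in DMSO and 2.37, 1.76 and 1.81 in CCT068127. In TPM these 2 genes thus went from near parity to a lead for BCL2L1. By CPM, MCL1 led in DMSO, with a mean share of 54.5% against 36.3%, and BCL2L1 led in CCT068127, with 53.1% against 43.2%. BCL2L2 went from 7.75 ± 0.484% to 2.44 ± 0.382%, a share that counts its own row only. Among the effectors BOK made up 32.5 ± 0.27% in DMSO and 21.3 ± 5.76% in CCT068127, and BAX 52.7 ± 0.403% and 60.4 ± 6.65%. BAK1 made up 14.8 ± 0.139% and 18.3 ± 0.961%.

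The summed TPM of the 5 survival genes was 449, 383 and 388 in DMSO and 363, 369 and 369 in CCT068127. The direction of this sum depended on the unit. In mean CPM, BCL2L1 went from 226 to 381, MCL1 from 336 to 310 and BCL2L2 from 53.1 to 21.1. The survival sum was thus lower in TPM and higher in CPM. The summed TPM of the 3 effectors was 301, 270 and 262 in DMSO and 164, 116 and 143 in CCT068127. The ratio of the first sum to the second was 1.49, 1.42 and 1.48 in DMSO and 2.21, 3.17 and 2.58 in CCT068127, without overlap. CCT068127 replicate 2, the library with the low BOK value, gave the highest ratio. No test was made of shares or ratios, since the members were chosen with earlier results known.

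**Figure D4:**
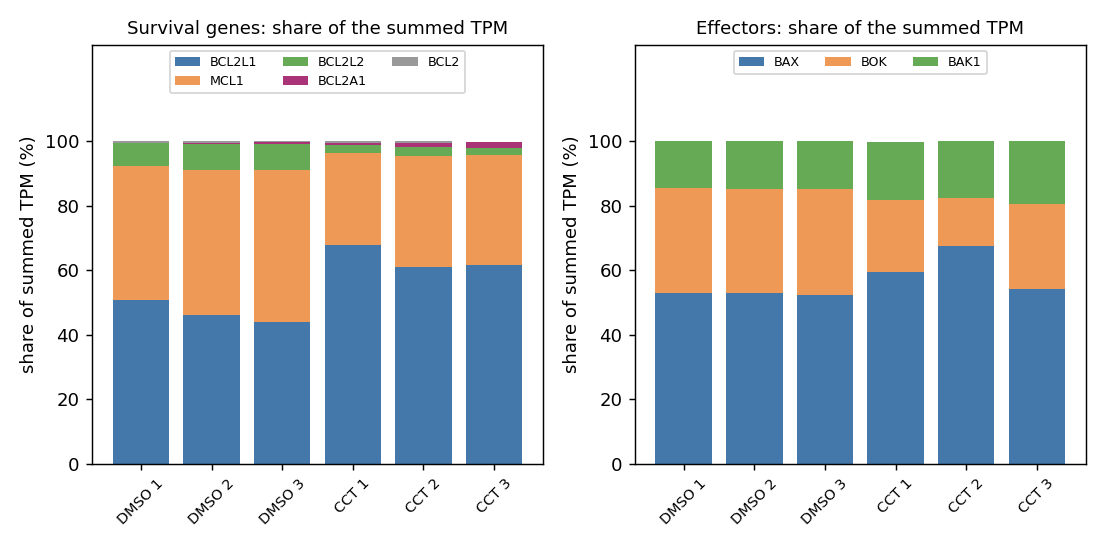
Share (%) of each gene in the summed TPM of the 5 survival genes (left) and of the 3 effectors (right), 1 bar per library. The BCL2L1 segment widens from 43.8% to 50.8% in DMSO to 60.9% to 67.9% in CCT068127 while the MCL1 segment narrows, and the BOK segment narrows from about 32.5% to between 15.1% and 26.4%.

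MCL1, BCL2L1 and BAX make proteins of opposite or altered activity by splicing, and gene-level rows do not count isoforms. The ratio of deposited count to TPM follows the mean effective length of the transcripts that took the reads, so it was compared as log2 of its value over the library median. MCL1 was at 0.33 in each DMSO library and 0.34 in each CCT068127 library, and BCL2L1 was at -0.33, -0.33 and -0.34 against -0.33, -0.33 and -0.35. None of the 6 members that could be tested passed (limma adjusted p from 0.159 for MCL1 to 0.929 for BOK), against 9.69% of 9129 genes. The differences were 0.011 for MCL1 (interval -0.001 to 0.022), -0.005 for BCL2L1 (-0.025 to 0.015) and 0.019 for BAX (-0.082 to 0.121). An exchange of isoforms of similar length would not be visible in this measure.

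Of 8 genes for BH3-only partners 6 were tested, and 2 rose and 3 fell, beside 31.9% and 32.8% of all genes, with a median log2 fold change of -0.35. The median turned to between 0.25 and 0.34 without DMSO replicate 1, 2 or 3 or without CCT068127 replicate 3, where 7 genes were tested, so it gives no common direction. Scaling by library totals gave 1 higher and 3 lower, beside 22.1% and 48.3% of all genes. In the TPM fit 0 of 7 rose and 4 fell, beside 17.2% and 51.9% of all genes. BMF, a sensor linked to the cytoskeleton, stood at 66.2, 128 and 104 CPM in DMSO and at 6.11, 5.71 and 8.76 CPM in CCT068127. It had a log2 fold change of -3.81 ± 0.31 and fell 14.1-fold (edgeR adjusted p = 5.1e-06). BBC3, which encodes PUMA, fell by 1.03 (adjusted p = 7.7e-05) on the log2 scale. BID, which links death receptors to mitochondria, rose by 0.67 ± 0.11 and PMAIP1, which encodes NOXA, the partner that targets MCL1, by 0.59 ± 0.13 (edgeR adjusted p = 0.000282 and 0.00283). These calls were both lost in the TPM fit (0.17 and 0.09, limma-trend adjusted p = 0.144 and 0.603), and that of PMAIP1 also with library totals (0.28, adjusted p = 0.0926). Of 5 further homologues 2 were tested. BCL2L13, a mitochondrial outer membrane protein, fell by 0.33 on the log2 scale (adjusted p = 0.021, and 0.0511 without CCT068127 replicate 3). BCL2L12 rose by 0.80 (adjusted p = 0.00571), a call that was lost in the TPM fit (0.40, adjusted p = 0.13), with library totals (0.49, adjusted p = 0.0506) and when CCT068127 replicate 1 was left out (0.51, adjusted p = 0.0577).

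Of 7 genes that set the life span of MCL1 protein, 6 were tested, and 1 rose, 3 fell and 2 did not pass (median -0.31), a share of calls near the 64.7% of all genes. With library totals 0 rose and 4 fell, beside 22.1% and 48.3% of all genes. HUWE1, the ubiquitin ligase also called MULE, fell by 1.21 on the log2 scale (edgeR adjusted p = 5.25e-06) and USP9X, the enzyme that removes ubiquitin from MCL1, fell by 0.83 (adjusted p = 4.47e-05). FBXW7, another ligase subunit, rose by 0.58 (adjusted p = 0.0183). That call was lost with library totals (0.27, adjusted p = 0.221) and without a low-count filter (0.33, adjusted p = 0.156). It was lost as well when DMSO replicate 3 (adjusted p = 0.0595), CCT068127 replicate 2 (0.0583) or CCT068127 replicate 3 (0.148) was left out, and in the TPM fit the value turned to -0.02.

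Downstream of the effectors, 5 of 12 tested genes rose, 2 fell and 5 did not pass (median 0.06), beside 64.7% of all genes called. CYCS, cytochrome c itself, was at 61.9, 59.9 and 57.9 CPM in DMSO and at 230, 293 and 272 CPM in CCT068127. It rose by 2.14 ± 0.11 and VDAC2, the channel that recruits BAK and BAX to mitochondria, by 1.61 ± 0.09 (edgeR adjusted p = 1.39e-07 and 1.69e-07). XIAP, which blocks caspases, fell by 0.81, and HTRA2, which relieves that block, fell by 0.73 on the log2 scale (adjusted p = 5.04e-05 and 0.0008). With library totals 4 rose and 6 fell, with a median of -0.25, and in the TPM fit the counts were also 4 and 6, with a median of -0.42, where 17.2% of all genes rose and 51.9% fell.

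**Figure D5:**
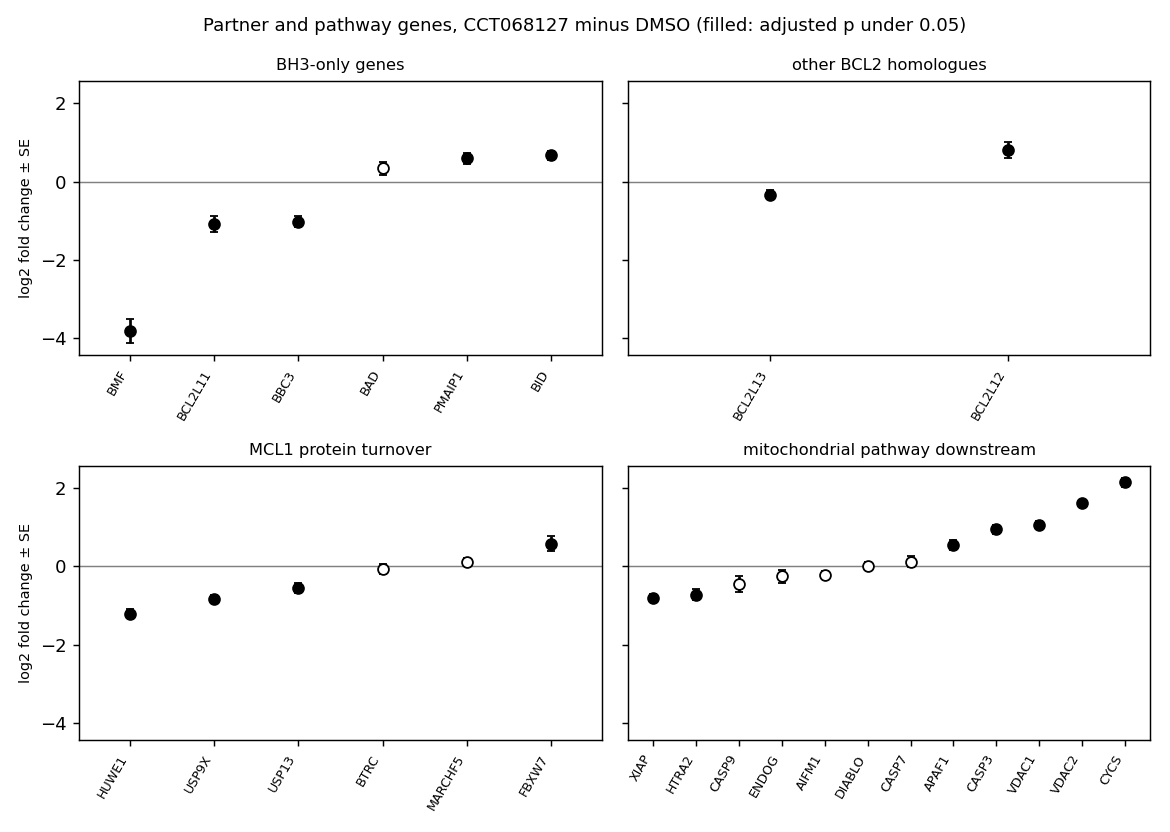
Log2 fold change ± SE (edgeR, CCT068127 minus DMSO) of the tested genes of 4 lists around the BCL2 family, with filled symbols for genes past an adjusted p of 0.05. BMF is the lowest of all at -3.81 and CYCS the highest at 2.14, and each list holds genes on either side of 0.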

How the data were processed

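Poly(A)-selected RNA from 6 cultures was made into libraries with an NEB Ultra II kit, per the labels' protocols. The authors' tables give estimated counts, rounded to whole numbers, and deposited TPM values by gene symbol. Per the submitters' processing notes the tools were RSEM and Bowtie and the build hg38, and versions, annotation and strandedness are not given in the sources used here. The deposited counts were fitted with edgeR 4.0.16 (R 4.3.3). Genes were kept by filterByExpr (a minimum count of 10, here 1.74 CPM, in at least 3 libraries), scaled by TMM and fitted with treatment as the only term and robust quasi-likelihood dispersion, two-sided. Standard errors were derived from the F statistic. CPM uses the TMM-scaled totals of all 6 libraries. Effective length was tested with limma 3.58.1 on log2(count/TPM), centred on the library median, for genes with at least 20 counts in every library. limma-trend on log2(TPM + 1) used genes with 1 TPM in 3 libraries, a scale that understates changes of low genes. The count fit was tested on simulated data.

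Gene positions came from RefSeq (GRCh38.p14), exons and junctions from GENCODE release 29. A count of 0 limits a gene to 3 counts of the library total, 0.0073 CPM in the deepest and 1.53 CPM in the shallowest library. The members, gene lists and tests were chosen with earlier results of these data known. The text names all 8 members and up to 2 called genes per direction of each partner list by smallest adjusted p. It also names the 3 genes nearest in pattern to MCL1 and to the tested member with the largest change (mean of at least 5 CPM). Genes with counts that overlap members are named too. Alternatives were other scalings, no filter, DESeq2 1.42.0, limma-voom, TPM, thinning of DMSO replicates 1 and 2 to the depth of DMSO replicate 3 (1 draw), only DMSO replicate 3 as control, a replicate block and leaving out each library. P-values measure the spread between these 3 libraries per group.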

Additional observations from a re-analysis of the deposited data

How the results depend on the processing

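Leaving out each library in turn gave log2 fold changes from -0.19 to -0.08 for MCL1, 0.21 to 0.44 for BCL2, 0.64 to 0.87 for BCL2L1, -1.49 to -1.29 for BCL2L2, -0.47 to -0.21 for BAX, -0.28 to -0.05 for BAK1 and -1.19 to -0.79 for BOK. In these fits 2 to 3 members were called lower, beside 3888 to 4800 of all genes. In edgeR with library totals the values were -0.43 for MCL1, -0.58 for BAX and -0.45 for BAK1, and without a low-count filter -0.36, -0.51 and -0.38. With limma-trend MCL1 was at -0.61, BAX at -0.79 or, with a pseudocount of 0.1, -0.80, and BAK1 at -0.66 or -0.68. BCL2L1 was at 0.29 in those fits, with no call, and at 0.92, without a test, against DMSO replicate 3 alone. The summed BCL2L2 row was at -0.03, or -0.21 without CCT068127 replicate 2. With library totals, without a low-count filter and with limma-trend 5 members were called lower. The shares of all genes called lower were 48.3%, 21.6% and, with limma-trend on filtered log2(TPM + 1) values, 51.9%. Without a low-count filter 2 members were called higher in edgeR, beside 18.9% of all genes. Over all genes, limma-trend called 2474, 3039 or 2444 higher and 7472, 7365 or 7299 lower, against 4333 and 4460 in the TMM fit. The cause was not tested. By CPM in place of TPM, shares in DMSO and CCT068127 were 54.5% and 43.2% for MCL1, 36.3% and 53.1% for BCL2L1, 8.61% and 2.93% for BCL2L2, 0.0708% and 0.28% for BCL2A1, 25.8% and 33.4% for BAX, 20.4% and 28.3% for BAK1 and 53.8% and 38.3% for BOK, and 0.509% for BCL2 in DMSO. Effective length differences ranged from -0.009 to 0.002 for BCL2L1, -0.007 to 0.002 for BCL2L2, -0.007 to 0.066 for BAX and -0.031 to 0.034 for BOK when libraries were left out. BAX passed at 0.066 (adjusted p = 0.0128) without CCT068127 replicate 2.

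With the replicate number as a block, MCL1 was at -0.12, BCL2L1 at 0.76, BCL2L2 at -1.36 and BOK at -1.07, and no member's call changed. Deviations of same-numbered libraries from their group means had correlations of 0.00999, 0.00471 and 0.0095, and the numbers were not taken as pairs. Counting noise in the shallow libraries could hide a shared replicate effect, so these correlations do not exclude pairing. Library totals of 1966742 to 5955296 limit BCL2 and BCL2A1 most.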

Other observations

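The BH3-only gene BCL2L11, which encodes BIM, the partner that binds all survival proteins, differed in the ratio of count to TPM, the measure of transcript length that called none of the 6 members tested. Its relative effective length was 0.62, 0.63 and 0.62 (log2 of the library median) in DMSO and -0.33, -0.80 and -0.34 in CCT068127, a difference of -1.113 with an interval from -1.484 to -0.741 (limma adjusted p = 0.0157). Its CPM were 28, 42.2 and 42.4 in DMSO and 17.5, 14.3 and 19.2 in CCT068127 (log2 fold change -1.09 ± 0.20, edgeR adjusted p = 0.000706). In TPM the difference was smaller, at -0.46 on the log2(TPM + 1) scale (limma-trend adjusted p = 0.0424, and 0.0948 without a filter on low values). BCL2L11 was singled out after its values were seen, and CCT068127 replicate 2 rested on 25 reads.

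Of 24 partner and pathway genes tested for this measure, 3 were shorter and 1 was longer, beside 9.69% of all genes called in either direction. USP13, which removes ubiquitin from MCL1, was also shorter by this measure, from 1.08, 1.06 and 1.05 to 0.69, 0.56 and 0.62 (difference -0.436, limma adjusted p = 0.00485), and fell by 0.55 on the log2 scale in counts (edgeR adjusted p = 0.00412). The third was MARCHF5, a ubiquitin ligase (difference -0.104, limma adjusted p = 0.0158), and DIABLO, an antagonist of XIAP, was longer (0.071, limma adjusted p = 0.0462). These genes too were named after their values were seen.

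ADAMTSL4-AS1, whose gene overlaps MCL1 on the same strand, had 30, 55 and 0 counts in DMSO and 11, 2 and 9 counts in CCT068127, few beside the 575 to 147106 counts of MCL1.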
